A study of Rattus norvegicus with 10 samples.

Results

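The 10 genes described here, Dusp4, Dusp5, Dusp6, Spry1, Spry2, Spry4, Spred1, Etv1, Etv4 and Etv5, are known as transcriptional outputs of the ERK pathway, and most of their products restrain that pathway. They were taken by gene symbol, and all 10 of the 10 were found among the 23487 genes of the count table. RNA was sequenced from primary Sprague-Dawley rat cells of the oligodendrocyte (OL) lineage in 10 libraries, 2 for each of 5 groups. Oligodendrocyte precursor cells (OPCs) had been shaken from mixed glial cultures of P1 to P3 cortices and enriched by differential adhesion. OLs were harvested on differentiation day 5, 5 days after transfection at 30 nM with a miR-145 mimic (OL miR-145), with miR-145 and miR-219 mimics together (OL miR-145+miR-219), or with a control mimic (OL miR-ctl). OPCs were harvested 24 h after transfection at 30 nM with an inhibitor of miR-145 (OPC anti-miR-145) or its control (OPC anti-miR-ctl). OPC medium held FGF2 and PDGFAA, whereas OLs were kept in medium with T3, CNTF and N-acetyl cysteine. The labels number the libraries of a group N1 and N2, and the study describes each N as a biological replicate. It defines an N of primary culture as the cells of a single mouse and does not say how many rats gave each N. The p-values therefore measure the spread between libraries numbered as replicates. A treatment tag on the OL miR-145 libraries also mentions miR-219. The group was taken from the titles, which give miR-145 only. The labels describe transfected mimics, which is followed here, although the methods also mention lentiviral delivery.

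FGF and PDGF receptors activate RAS, and the kinases RAF, MEK and ERK then pass the signal on to the nucleus. ERK switches on its own brakes. The MAP kinase phosphatases Dusp4, Dusp5 and Dusp6 remove phosphate from MAP kinases, with Dusp6 acting in the cytoplasm and Dusp4 and Dusp5 in the nucleus. Sprouty proteins and Spred1 act between the receptor and RAF. The PEA3 factors Etv1, Etv4 and Etv5 are ETS transcription factors through which part of the ERK response is carried out, and the repressor Cic holds several of these genes down until ERK signalling releases it. In the OPC, PDGF and FGF signalling maintain proliferation, and ERK activity is also known to act during myelin growth.

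The miRNA that was mimicked or inhibited is shown first, with its seed (bases 2 to 8) in capitals, since both manipulations act through this sequence. RefSeq places it on build GRCr8 at chr18:57370033-57370055, minus strand.

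miR-145-5p: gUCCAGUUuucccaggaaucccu

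Among the 10 genes, Spry4 had the largest difference between OPCs and OLs. Over the 10 libraries, Dusp6 was the member of the 10 whose level followed that of Spry4 most closely. Upstream sequences of Spry4 and Dusp6 are shown. Each is the 250 bases before the gene's start in RefSeq (GRCr8), with the letters TGAATG, the core of the sequence that Cic is known to bind, or their reverse complement CATTCA in capitals. Spry4 lies at chr18:30702547-30702796, minus strand, and Dusp6 at chr7:35979354-35979603, plus strand.

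Spry4: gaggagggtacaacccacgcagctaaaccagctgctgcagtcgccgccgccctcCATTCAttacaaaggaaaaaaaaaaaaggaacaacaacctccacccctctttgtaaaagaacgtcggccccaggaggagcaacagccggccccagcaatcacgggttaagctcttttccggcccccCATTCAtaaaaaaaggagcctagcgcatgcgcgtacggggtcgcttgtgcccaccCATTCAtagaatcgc

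Dusp6: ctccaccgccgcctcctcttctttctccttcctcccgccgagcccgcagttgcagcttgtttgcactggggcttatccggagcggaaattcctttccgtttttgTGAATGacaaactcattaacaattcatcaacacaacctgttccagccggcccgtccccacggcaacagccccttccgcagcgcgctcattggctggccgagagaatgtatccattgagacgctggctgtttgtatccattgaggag

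The Spry4 stretch held 3 such matches, beginning 196, 70 and 15 bases before the start, and the full RefSeq window of 300 bases, which reaches 50 bases past the start, held 4. The motif was chosen after the Spry4 window had been seen, and the limit of 4 matches used next is the count of that window. The share at that limit is therefore a description and not a test. At least 4 matches on either strand occurred in 25 of 33469 windows of that length (0.0747%), and at least 1 in 13.1% of them. RefSeq windows were matched for 8 of the 10 genes, and the core was found in 3 of these 8, with a single match each in Dusp5 and Dusp6. The longer forms TGAATGAA and TGAATGGA, which contain the core, were found in Spry4 alone among the 8, against 2.66% of all windows. The ETS core CCGGAA was found in Dusp5, Spry2 and Spry4, against 15% of all windows. The AP-1 letters TGANTCA and the CRE letters TGACGTCA were in none of the 8, against 7.33% and 1.83% of all windows. Dusp4 and Etv4 had no window. A match describes letters and does not show binding.

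Estimated counts summed to between 33505706 and 42684206 per library. Estimated counts of the 10 genes ran from 40 to 168 for Dusp5 and from 118 to 1000 for Dusp4, while the lowest count of any of the other 8 was 335. Levels are given as CPM, counts relative to library size, after TMM scaling over all 10 libraries and are not divided by gene length, so they are compared between libraries and not between genes. The OL label was matched by 10 of 12 maturing OL markers that lay higher in every OL library than in every OPC library. Of the 11 OPC markers measured, 7, Pdgfra among them, were higher in every OPC library. The reverse held for 2 of the 11, C1ql1 and Vcan, which were lower in every OPC library than in every OL library. Astrocyte markers were abundant in the OL libraries: the 10 markers summed to between 5925 and 14566 CPM there and to between 476 and 805 CPM in OPC libraries, with 9 of the 10 higher in every OL library. Microglial markers summed to between 391 and 1043 CPM in OL libraries and to between 912 and 1149 CPM in OPC libraries. No marker of any list was at 0 in both libraries of a group. In bulk RNA, fewer cells of a type and less RNA per cell cannot be told apart.

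Among the phosphatases, Dusp6 (ENSRNOG00000023896) was at 31.6 and 25.6 CPM in OL miR-ctl, 38.1 and 35.1 in OL miR-145, and 31.8 and 27.3 in OL miR-145+miR-219, against 210.4 and 210.3 CPM in OPC anti-miR-ctl and 258 and 234 in OPC anti-miR-145. Its OPC values therefore lay far above all 6 OL values. Dusp4 (ENSRNOG00000011921) was at 5.98 and 3.68 CPM in OL miR-ctl, 5.39 and 2.98 in OL miR-145, 4.99 and 3.90 in OL miR-145+miR-219, 23.4 and 21.4 in OPC anti-miR-ctl, and 19.2 and 20.2 in OPC anti-miR-145. The OL groups overlapped for Dusp4. Dusp5 (ENSRNOG00000014061) was the sparsest member, at 1.13 and 1.32 CPM in OL miR-ctl, 1.15 and 1.39 in OL miR-145, 1.26 and 1.12 in OL miR-145+miR-219, 2.53 and 2.00 in OPC anti-miR-ctl, and 4.17 and 2.57 in OPC anti-miR-145. The lowest OPC library was above the highest OL library for Dusp5 by 1.44-fold.

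Among the inhibitors acting upstream, Spry4 (ENSRNOG00000013851), a Sprouty protein, was at 18.3 and 10.3 CPM in OL miR-ctl, 21.6 and 14.8 in OL miR-145, and 17.2 and 11.1 in OL miR-145+miR-219, against 382 and 364 CPM in OPC anti-miR-ctl and 356 and 359 in OPC anti-miR-145. The gap between the lowest OPC and the highest OL library was 16.5-fold, the widest of the 10 genes. Spry1 (ENSRNOG00000025371) was at 16.3 and 15.1 CPM in OL miR-ctl, 18.8 and 13.6 in OL miR-145, 16.6 and 10.4 in OL miR-145+miR-219, 123 and 122 in OPC anti-miR-ctl, and 206 and 206 in OPC anti-miR-145. Replicates of Spry1 were almost identical within each OPC group. Spry2 (ENSRNOG00000010058) was at 53.5 and 55.7 CPM in OL miR-ctl, 84.0 and 62.1 in OL miR-145, 74.4 and 57.2 in OL miR-145+miR-219, 205 and 197 in OPC anti-miR-ctl, and 245 and 229 in OPC anti-miR-145. Values of Spry2 in each treated OL group were above the OL controls, at the narrowest 57.2 against 55.7 CPM in OL miR-145+miR-219. EdgeR called none of these differences. Among all genes, 22.9% were likewise higher in both OL miR-145 libraries and 17.3% in both OL miR-145+miR-219 libraries. Spred1 (ENSRNOG00000005209), which brings neurofibromin to RAS, was at 41.0 and 28.0 CPM in OL miR-ctl, 39.0 and 33.7 in OL miR-145, 41.1 and 32.3 in OL miR-145+miR-219, 60.7 and 60.0 in OPC anti-miR-ctl, and 47.4 and 59.5 in OPC anti-miR-145. Spred1 had the narrowest gap between stages, 1.15-fold.

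Among the PEA3 factors, Etv1 (ENSRNOG00000006867) was at 73.2 and 60.5 CPM in OL miR-ctl, 100.1 and 90.1 in OL miR-145, 104 and 72.5 in OL miR-145+miR-219, 241 and 230.4 in OPC anti-miR-ctl, and 348 and 402 in OPC anti-miR-145. Both OL miR-145 libraries were above both OL miR-ctl libraries, while 1 of the OL miR-145+miR-219 libraries fell within the control range. Among all genes, 22.9% were likewise higher in both OL miR-145 libraries. Etv5 (ENSRNOG00000001785) was at 50.3 and 32.2 CPM in OL miR-ctl, 67.4 and 51.8 in OL miR-145, 63.2 and 36.9 in OL miR-145+miR-219, 259 and 241 in OPC anti-miR-ctl, and 249.5 and 260.2 in OPC anti-miR-145. The 2 OPC groups overlapped for Etv5. Etv4 (ENSRNOG00000020792) was at 21.8 and 10.9 CPM in OL miR-ctl, 34.6 and 20.1 in OL miR-145, 26.4 and 10.8 in OL miR-145+miR-219, 107 and 101 in OPC anti-miR-ctl, and 94.7 and 90.2 in OPC anti-miR-145. Replicates of Etv4 differed widely in each OL group, so these groups overlapped.

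**Figure D1:**
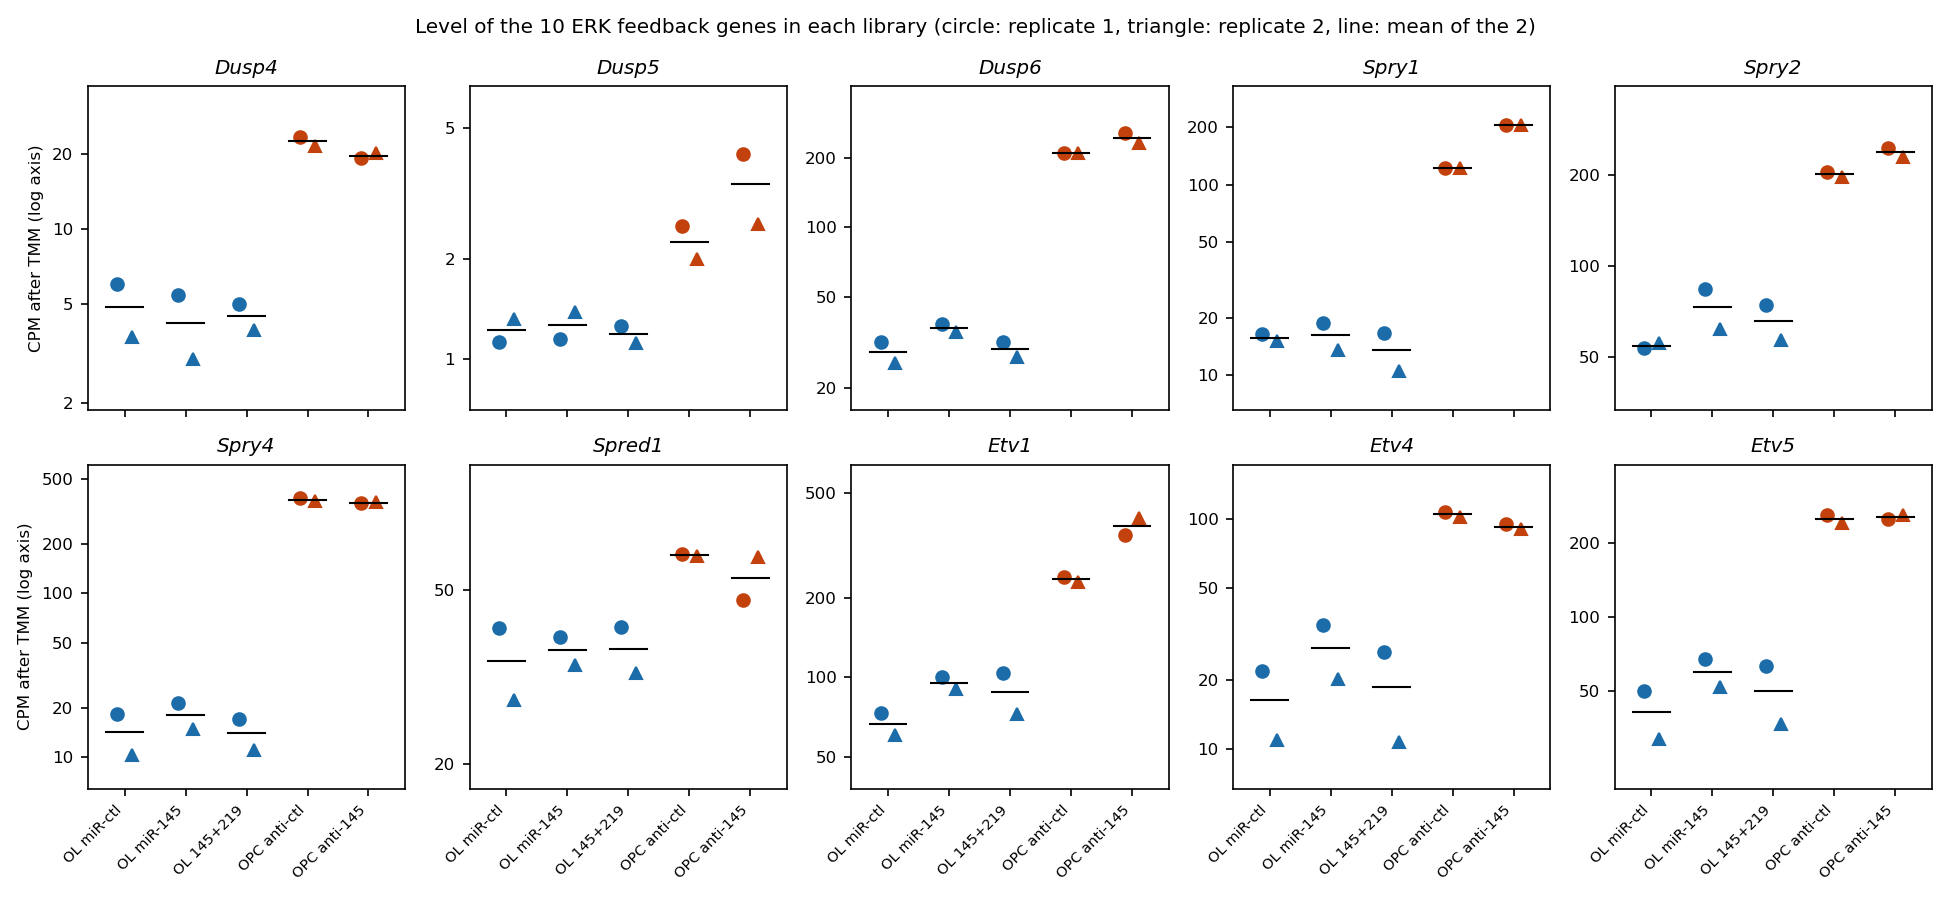
CPM after TMM scaling, on log axes, of each of the 10 genes in the 10 libraries (blue OL, orange OPC; circles replicate 1, triangles replicate 2, lines group means). For all 10 genes the 4 OPC libraries sit above the 6 OL libraries, with a gap between the lowest OPC and the highest OL library of 1.15-fold for Spred1 to 16.5-fold for Spry4.

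The comparison of OL miR-ctl with OPC anti-miR-ctl addressed how the genes differed between the control cells of the 2 stages. All 10 were lower in OLs at a Benjamini-Hochberg adjusted p under 0.05 in edgeR's quasi-likelihood test, and in each the highest of the 6 OL libraries was below the lowest of the 4 OPC libraries. Spry4 was 26.0-fold lower (log2 fold change -4.70 ± 0.29 SE, n = 2 per group, edgeR adjusted p = 0.000196). Spry1 was 7.82-fold lower and Dusp6 7.36-fold lower, with log2 fold changes of -2.97 ± 0.09 and -2.88 ± 0.12 and edgeR adjusted p of 4.4e-05 and 7.72e-05. Etv4 and Etv5 were lower by 6.36-fold and 6.07-fold (log2 -2.67 ± 0.32 and -2.60 ± 0.22, edgeR adjusted p = 0.00167 and 0.000537), and Dusp4 by 4.62-fold (log2 -2.21 ± 0.24, edgeR adjusted p = 0.00121). Spry2 and Etv1 stood closer together, at 3.69-fold and 3.54-fold lower (log2 -1.88 ± 0.08 and -1.82 ± 0.11, edgeR adjusted p = 6.6e-05 and 0.0002).

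The smallest differences were those of Dusp5, 1.85-fold lower (log2 -0.89 ± 0.26, edgeR adjusted p = 0.0337), and Spred1, 1.75-fold lower (log2 -0.81 ± 0.18, edgeR adjusted p = 0.0148). These 2 calls rested on both OPC control libraries. Without replicate 1 of OPC anti-miR-ctl the edgeR adjusted p was 0.216 for Dusp5 and 0.0783 for Spred1, and without replicate 2 it was 0.0998 and 0.0775. DESeq2 gave Dusp5 an adjusted p of 0.0743, and over all alternatives its values ran from 0.0175 to 0.216, while those of Spred1 ran from 4.01e-07 to 0.0783. The call of the other 8 genes was kept under every alternative run.

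The background in this comparison was high. Of 15721 genes tested, 57.5% were called, 28.8% higher and 28.7% lower in OLs, and 24.3% of 16339 genes lay higher in every OPC library than in every OL library. The 10 genes were 10 of 10 on both counts, and the median log2 fold changes were -2.21 for the phosphatases, -2.43 for Sprouty and Spred1, and -2.60 for the PEA3 factors, against 0.01 over all genes tested. Stage, medium, time since transfection and kind of oligonucleotide all differed between these groups and cannot be told apart. Astrocyte markers moved the other way, with 9 of 10 called higher in OLs and none lower, and maturing OL markers likewise, with 10 of 12 higher. Other lists moved the same way as the 10 genes: 7 of 11 OPC markers were called lower in OLs and 3 higher (median log2 fold change -1.09), 6 of 8 neuronal markers lower and 1 higher (median -1.60), and 6 of 12 microglial markers lower and 1 higher (median -0.60). Their part in the result was not tested.

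**Figure D2:**
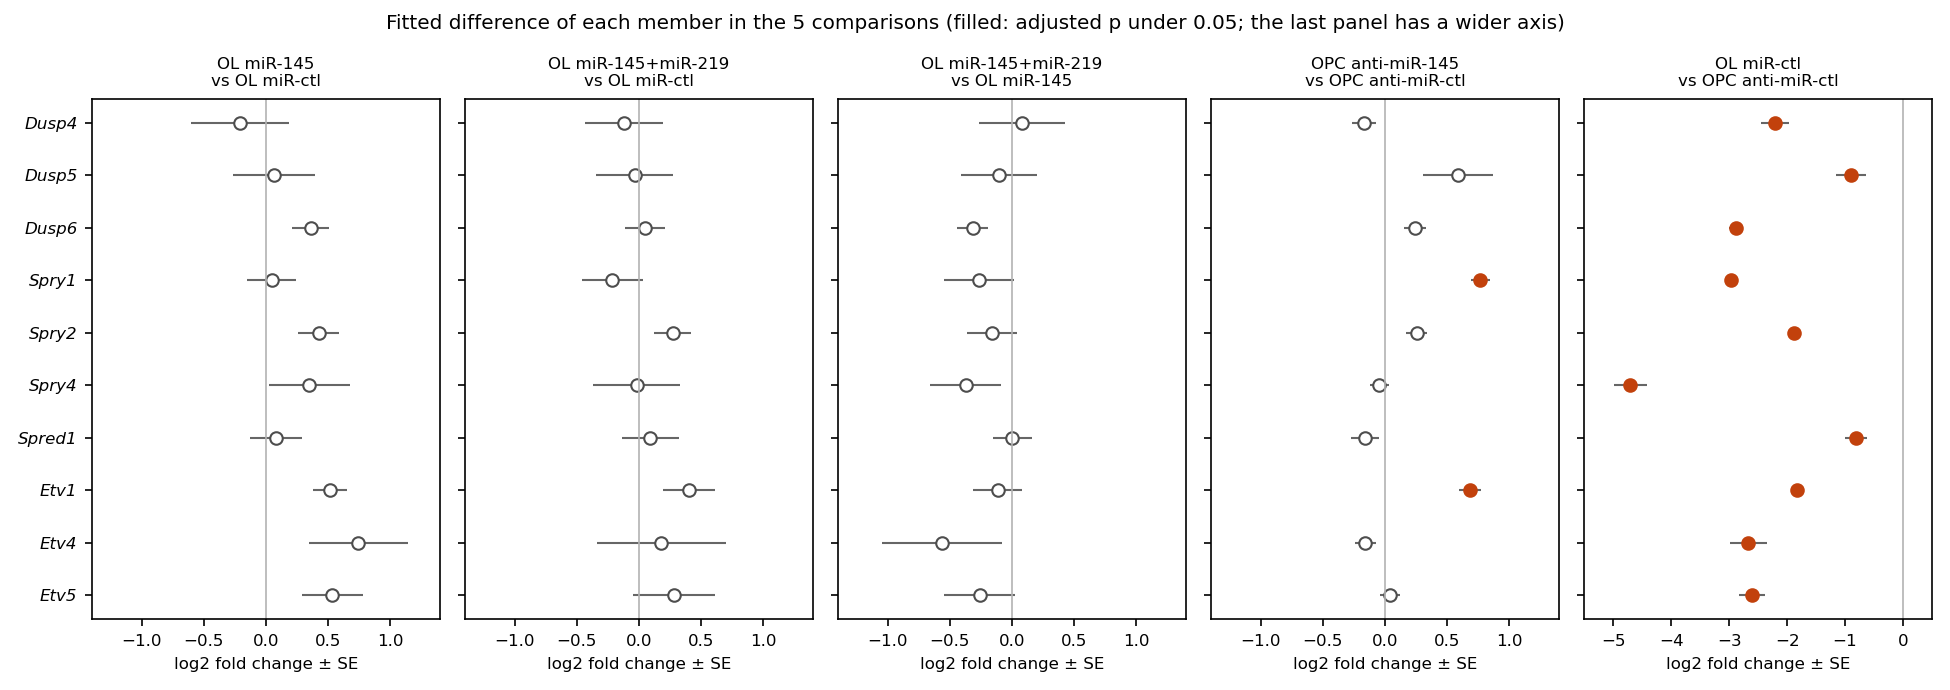
Fitted log2 fold change ± SE of each gene in the 5 comparisons (filled points have an edgeR adjusted p under 0.05, and the last panel has a wider axis). All 10 points of the stage comparison lie left of 0, from -0.81 for Spred1 to -4.70 for Spry4, and in the other panels only Spry1 and Etv1 in OPCs are filled.

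Other negative regulators and targets of the pathway did not move as a block. Of 6 other MAP kinase phosphatases tested, 3 were lower in OLs and 2 higher. Dusp2 was 58.8-fold lower, at 0.155 ± 0.041 CPM in OLs and 9.13 ± 1.51 in OPCs (SD, n = 2), and Dusp1 was 3.69-fold lower (edgeR adjusted p = 0.000112 and 0.000644). Dusp16 was 1.65-fold lower (edgeR adjusted p = 0.0246). By contrast, Dusp7, which like Dusp6 acts on ERK in the cytoplasm, was 2.69-fold higher, and Dusp10, which acts mainly on JNK and p38, was 9.58-fold higher (edgeR adjusted p = 0.00019 and 0.00409). Of 6 other Sprouty-type inhibitors, Spred2 and Spred3 were 2.60-fold and 2.56-fold lower (edgeR adjusted p = 0.00271 and 0.00298). Il17rd, Lrig1 and Errfi1, which restrain receptor signalling, were 5.95-fold, 4.29-fold and 2.24-fold higher (edgeR adjusted p = 0.00158, 0.00136 and 0.000834).

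Of 15 other ERK-induced genes, 10 were lower and 3 higher in OLs, and the median of their log2 fold changes was -0.82. Ccnd1, the cyclin of the G1 phase, fell from 3318 ± 59.8 CPM in OPCs to 226 ± 37.1 in OLs (14.7-fold, edgeR adjusted p = 6.22e-05). The early genes Egr1 and Egr2 were 17.8-fold and 17.3-fold lower (edgeR adjusted p = 7.92e-05 and 0.000189). Fos, also an early gene, was 3.83-fold higher, as were Epha4 by 6.94-fold and Hbegf by 1.49-fold (edgeR adjusted p = 0.00139, 0.00381 and 0.00832).

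At the top of the pathway, 11 of 20 receptor tyrosine kinases were higher in OLs and 2 lower. Pdgfra, the PDGF receptor of OPCs, was 4.05-fold lower (edgeR adjusted p = 0.000624). The FGF receptors went the other way: Fgfr2 was 17.3-fold higher, Fgfr3 5.74-fold and Fgfr1 1.42-fold (edgeR adjusted p = 0.0002, 0.000331 and 0.00794). Fgfr3 is also on the astrocyte list. Among ligands 6 of 16 were higher and 1 lower, with Pdgfb 51.6-fold higher from a level of 0.164 CPM. Of 14 adaptors and exchange factors, 7 were higher and 4 lower, and Ptpn11, which relays receptor signals to RAS, was 2.47-fold higher (edgeR adjusted p = 0.000608). Of 13 RAS proteins and their GTPase activators, 2 were higher and 8 lower.

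The kinases themselves were mixed. Of 12 genes of the RAF, MEK, ERK and scaffold list, 4 were higher and 3 lower, with a median log2 fold change of 0.04. Mapk3, which encodes ERK1, was 2.27-fold higher in OLs (edgeR adjusted p = 0.000393). Map2k1 and Map2k2, the MEK kinases, had log2 fold changes of -0.11 ± 0.13 and 0.06 ± 0.07 (edgeR adjusted p = 0.505 and 0.502). Of 6 RSK and MNK kinases 1 was higher and 2 lower, and Rps6ka2, an RSK, was 10.8-fold higher. Of 12 ETS factors and Cic partners 4 were higher and 3 lower. Cic was 2.16-fold higher in OLs (edgeR adjusted p = 0.000537), and Ets2, itself an ERK-responsive ETS factor, was 5.19-fold lower (edgeR adjusted p = 0.000112).

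**Figure D3:**
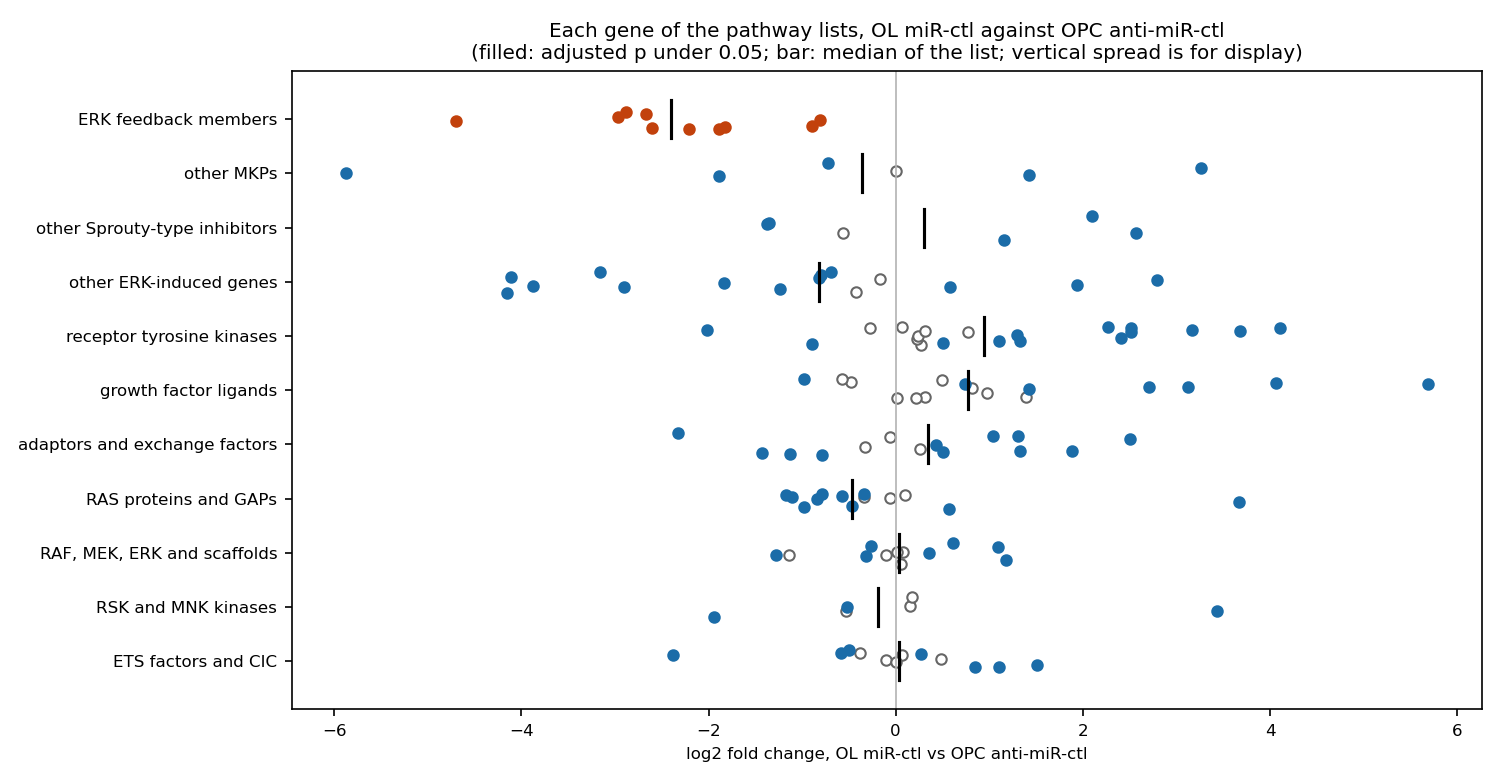
Log2 fold change of each gene of the pathway lists, OL miR-ctl against OPC anti-miR-ctl (points are genes, filled at an edgeR adjusted p under 0.05, bars are list medians, and vertical spread is for display). The 10 feedback genes all lie left of 0, the 12 RAF, MEK, ERK and scaffold genes have a median of 0.04, and the 20 receptor tyrosine kinases a median of 0.94.

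Inhibition of miR-145 in OPCs addressed whether these genes respond when the miRNA is blocked in precursors. Spry1 and Etv1 rose, and none of the 10 fell at the threshold. Spry1 went from 122 ± 0.806 to 206 ± 0.341 CPM (SD, n = 2), 1.70-fold (log2 0.77 ± 0.08 SE, edgeR adjusted p = 0.000524). Etv1 went from 236 ± 7.53 to 375 ± 38.3 CPM, 1.61-fold (log2 0.68 ± 0.09 SE, edgeR adjusted p = 0.00198). Both were called under all 10 alternatives, with adjusted p from 7.08e-14 to 0.0346 for Spry1 and from 4.73e-09 to 0.0288 for Etv1. The 2 calls among 10 genes stand against 28.1% of 15496 genes called in this comparison, 12.1% higher and 16% lower, so the share of the 10 that was called did not stand above the background.

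The related members did not all follow. Spry2 and Dusp6 were 1.19-fold and 1.18-fold higher (log2 0.25 ± 0.08 and 0.24 ± 0.09, edgeR adjusted p = 0.0635 and 0.0847). For Spry2, DESeq2 gave an adjusted p of 0.0478, within a range of 0.00245 to 0.470 over the alternatives. Dusp5 had the third largest estimate, with the largest error (log2 0.58 ± 0.28, edgeR adjusted p = 0.165). Spry4, whose level differed most between stages, had a log2 fold change of -0.05 ± 0.08 (edgeR adjusted p = 0.688), and Etv5 one of 0.04 ± 0.08 (edgeR adjusted p = 0.721). Dusp4, Spred1 and Etv4 had log2 fold changes of -0.17 ± 0.10, -0.16 ± 0.11 and -0.16 ± 0.08. Over all alternatives, which include leaving out each library, the log2 fold change of Spry2 ran from 0.189 to 0.319. That of Dusp6 ran from 0.156 to 0.326 and that of Dusp5 from 0.179 to 0.908. For Etv4 it ran from -0.221 to -0.108, and for Spred1 from -0.318 to -0.019. How many of the 10 were called depended on the inhibitor libraries, as given with the dependence on processing.

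Around these genes, 28 of 119 other pathway genes tested were called higher and 17 lower. Among other phosphatases Dusp10 and Dusp8 were 1.71-fold and 1.46-fold higher, while Dusp2 and Dusp1 were 6.22-fold and 2.08-fold lower (edgeR adjusted p = 0.00784, 0.00929, 0.000192 and 0.00196). Among Sprouty-type inhibitors Spred3 was 1.98-fold and Lrig1 1.65-fold higher (edgeR adjusted p = 0.000843 and 0.00262). Of 15 other ERK-induced genes 5 were higher and 1 lower. Fos rose 3.03-fold, Phlda1 1.62-fold and Myc 1.58-fold (edgeR adjusted p = 6.4e-05, 0.00195 and 0.00154), and Egr1 was 1.76-fold lower (edgeR adjusted p = 0.0025).

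Of 20 receptor tyrosine kinases 8 were higher and 3 lower. Axl rose 3.79-fold, Pdgfra 1.52-fold, Ddr1 1.54-fold and Fgfr1 1.48-fold, whereas Fgfr3 and Fgfr2 were 2.42-fold and 2.00-fold lower (edgeR adjusted p = 4.61e-05, 0.00709, 0.00152, 0.00236, 0.000574 and 0.000806). Among 15 ligands 5 were higher and none lower, with Igf1 and Pdgfc at 3.31-fold and 2.06-fold. Of the core kinases 1 was higher and 1 lower: Map2k2 rose 1.38-fold and the scaffold Iqgap1 was 1.96-fold lower (edgeR adjusted p = 0.0183 and 0.000395). Mapk3 had a log2 fold change of -0.05 ± 0.10. Of the RSK and MNK kinases 2 were higher and 2 lower, with Rps6ka1 1.82-fold higher, and of 13 RAS proteins and activators 4 were lower and none higher, with Rasa1 1.35-fold lower. Of the ETS list Cic was 1.27-fold higher (edgeR adjusted p = 0.032), Ets2 3.22-fold lower (edgeR adjusted p = 8.8e-05), and Elf1 and Etv3 were also lower.

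Cell markers differed between the 2 OPC groups. OPC markers summed to 7719 and 8839 CPM with the inhibitor and to 7069 and 6802 CPM without, with 4 of 11 called higher and 4 lower. Astrocyte markers summed to 476 and 521 CPM with the inhibitor and to 805 and 773 CPM without, with 5 of 9 called lower. Gfap, an astrocyte filament, was the 1 astrocyte marker called higher, from 8.02 to 45.9 CPM. Microglial markers had 6 of 12 called higher and 5 lower, and neuronal markers 4 of 8 higher. The part of these in the rise of Spry1 and Etv1 was not tested.

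**Figure D4:**
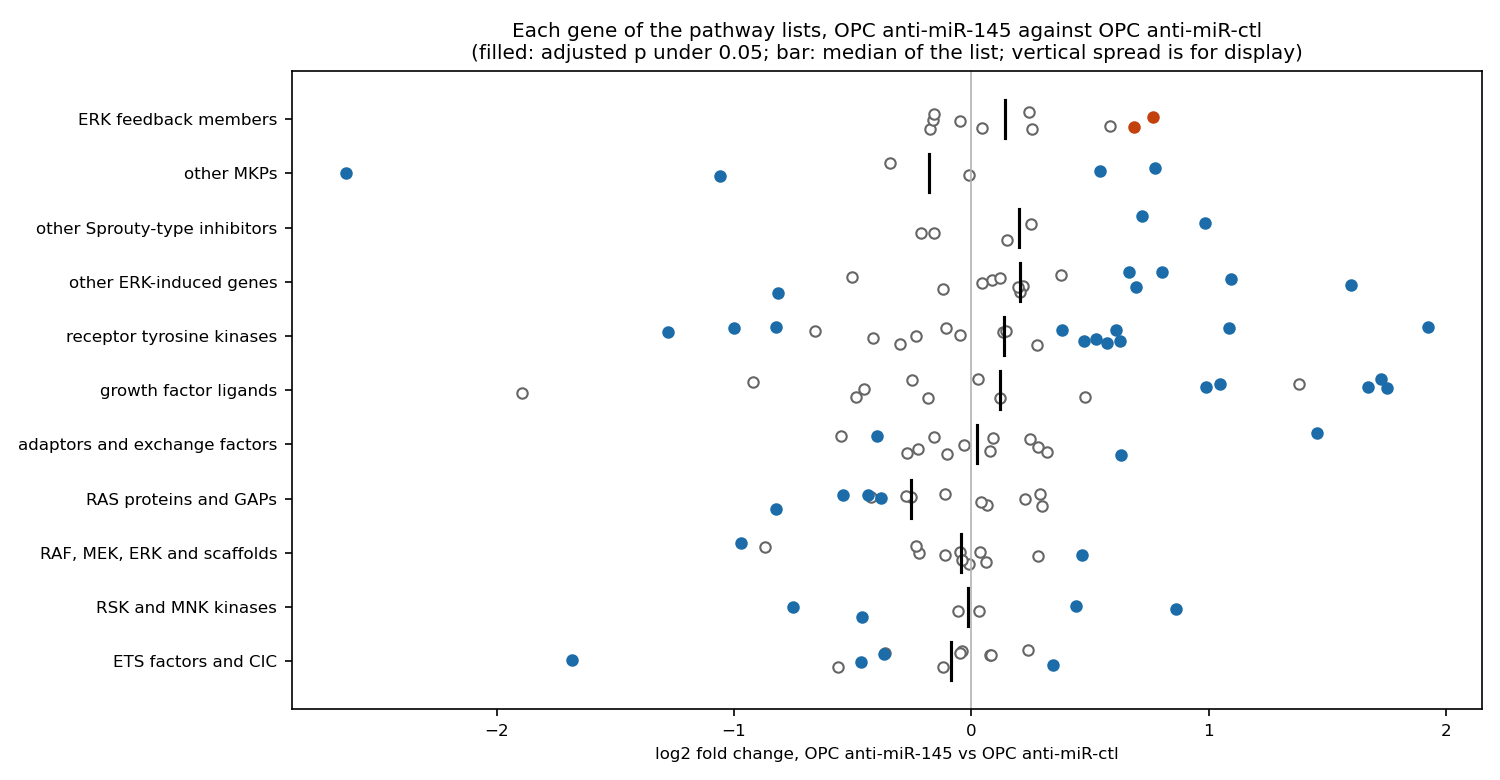
Log2 fold change of each gene of the pathway lists, OPC anti-miR-145 against OPC anti-miR-ctl (points are genes, filled at an edgeR adjusted p under 0.05, bars are list medians, and vertical spread is for display). Of the 10 feedback genes only Spry1 at 0.77 and Etv1 at 0.68 are filled, and filled points lie on both sides of 0 in the receptor, phosphatase and ETS lists, among others.

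Overexpression of miR-145 in OLs addressed whether the genes change when the miRNA is raised during differentiation. EdgeR called none of the 10 genes and 0% of 15461 genes. At an unadjusted p under 0.05 it gave 2 of the 10, against 13.4% of all genes, and DESeq2 called none of the 10, against 4.2% of all genes. The 2 were Etv1, 1.43-fold in OL miR-145 (log2 0.51 ± 0.14, unadjusted p = 0.0115, edgeR adjusted p = 0.225), and Spry2, 1.34-fold (log2 0.42 ± 0.17, unadjusted p = 0.0464, edgeR adjusted p = 0.365). Values of Etv1, Spry2, Dusp6 and Etv5 were higher in both OL miR-145 libraries than in both controls. None of the 10 was lower in both, whereas 22.9% of all genes lay apart higher and 24.4% apart lower. In a fit with a replicate block, which treats same-numbered libraries as pairs, 2272 of 15461 genes were called. The 4 members among them, all higher, were Spry2, Etv1, Etv4 and Etv5. Whether those libraries share a culture is not known.

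The estimates were positive in 9 of the 10 genes, from 0.05 ± 0.20 for Spry1 to 0.74 ± 0.40 for Etv4, and Dusp4 had one of -0.21 ± 0.39. The median over all genes tested was -0.01. Some members were strongly correlated within the OL libraries (Etv4 with Etv5, r = 0.977), so the 9 are not separate results. The signs of Dusp5, Spry1, Spry4 and Spred1 changed when certain single libraries were left out. Dusp6 had a log2 fold change of 0.36 ± 0.15 and Etv5 of 0.54 ± 0.25 (edgeR adjusted p = 0.381 and 0.419). Spry1, which rose with the inhibitor in OPCs, was at 15.7 ± 0.888 CPM in OL miR-ctl and 16.2 ± 3.69 in OL miR-145 (SD, n = 2). None of the 120 other pathway genes tested was called by edgeR, 21 had an unadjusted p under 0.05, and DESeq2 called 7. Of the receptors, Ntrk2, which binds BDNF, had a log2 fold change of 0.64 ± 0.20 (edgeR adjusted p = 0.296), and Mapk3 and Map2k1 had estimates of -0.08 ± 0.12 and 0.02 ± 0.16. Astrocyte markers summed to 14566 and 9882 CPM in OL miR-145 and to 6948 and 5925 CPM in OL miR-ctl, and edgeR called none of the 10, though all 10 had positive estimates, 7 had an unadjusted p under 0.05 and DESeq2 called 5. The 6 fibroblast or mural markers tested also had positive estimates, with sums of 64.6 and 103 CPM against 39.2 and 29.5. The 12 microglial markers had 12 positive estimates, but their sums overlapped, at 421 and 1043 CPM against 415 and 613. Other lists went the other way. Estimates were positive for 3 of 11 OPC markers (median log2 fold change -0.37) and 5 of 12 maturing OL markers (median -0.21). They were positive for 3 of 8 neuronal markers (median -0.23) and 3 of 5 endothelial markers (median 0.44). The part of all these markers in the values of the 10 genes was not tested.

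With miR-145 and miR-219 together, edgeR again called none of the 10 and 0% of 15436 genes against OL miR-ctl. None of the 10 had an unadjusted p under 0.05, against 6.19% of all genes, and DESeq2 called none of them, against 0.687%. Spry2 was the 1 member whose libraries lay apart, at 1.21-fold (log2 0.27 ± 0.15, edgeR adjusted p = 0.821), where 17.3% of all genes lay apart higher and 19.4% lower. Etv1 had the largest estimate, 0.41 ± 0.21, and Spry1 the lowest, -0.21 ± 0.24. Of the 120 other pathway genes edgeR called none, 12 had an unadjusted p under 0.05 and DESeq2 called 2.

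Set against OL miR-145 alone, the pair of mimics gave 0% of 15501 genes called by edgeR and none of the 10. None of the 10 had an unadjusted p under 0.05, against 1.47% of all genes, and DESeq2 called none, against 0.0581%. Dusp6 lay lower in both libraries with the pair of mimics than in both with miR-145 alone (log2 -0.32 ± 0.12, unadjusted p = 0.0529), where 11.2% of genes lay apart lower and 13.6% higher. Etv4 had the largest estimate, -0.57 ± 0.48, and Spred1 the smallest, 0.00 ± 0.16. With the replicate block Etv4 alone of the 10 was called, lower, among 184 of 15501 genes. These 3 OL comparisons share libraries, as do those that use OPC anti-miR-ctl, so they are not independent of each other.

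Replicates of the OL groups differed in these genes mostly in 1 direction. Replicate 1 was higher than replicate 2 in 10 of the 10 genes in OL miR-145+miR-219, in 9 in OL miR-145 and in 8 in OL miR-ctl, with Dusp5 and, in OL miR-ctl, Spry2 the exceptions. Etv4 was 2.45-fold, 1.72-fold and 2.00-fold higher in replicate 1 of these 3 groups, and Etv5 1.71-fold, 1.30-fold and 1.57-fold. Maturing OL markers were lower in replicate 1, at 21333 against 35909 CPM in OL miR-145+miR-219, 17363 against 26353 CPM in OL miR-145, and 19934 against 33188 CPM in OL miR-ctl. Astrocyte markers were higher there, at 12113 against 7170 CPM, 14566 against 9882 CPM and 6948 against 5925 CPM. OPC markers were also higher there, at 3907 against 3432 CPM, 3726 against 3428 CPM and 4058 against 3308 CPM, and microglial markers were lower, at 391 against 695 CPM, 421 against 1043 CPM and 415 against 613 CPM. The part of these in the replicate difference was not tested. In OPC anti-miR-ctl replicate 1 was also higher in 10 of 10 genes, by at most 1.26-fold, and in OPC anti-miR-145 in 4 of 10.

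**Figure D5:**
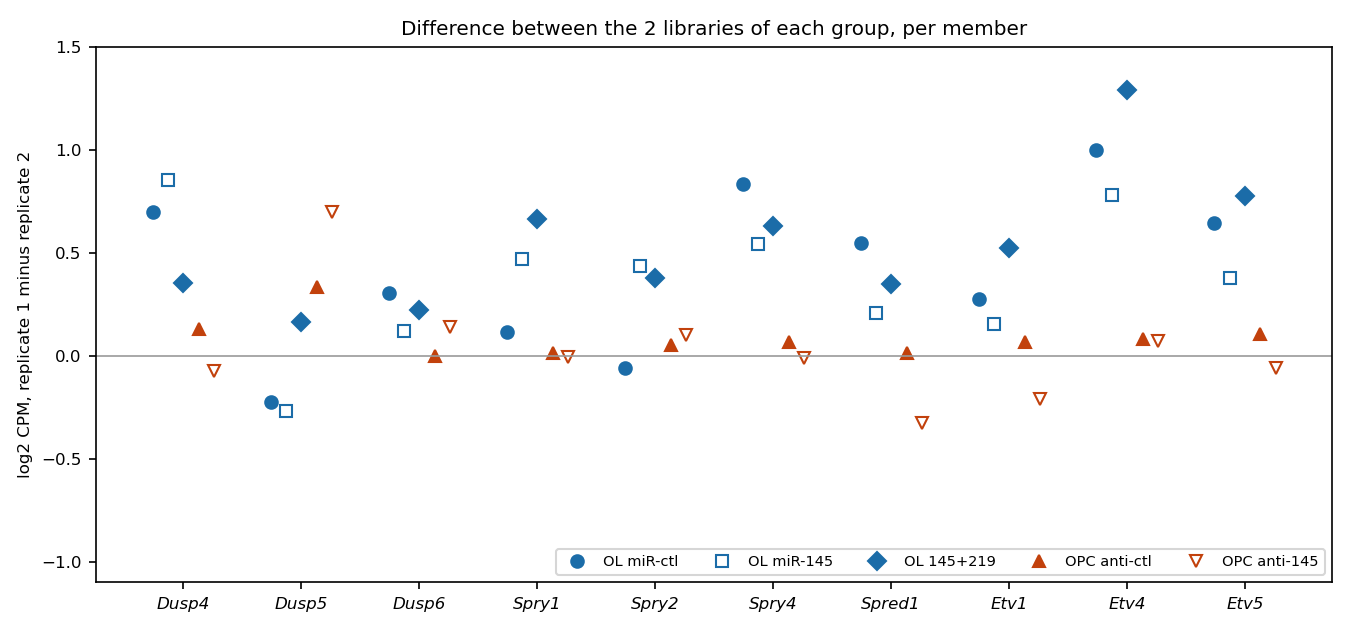
Difference in log2 CPM between replicate 1 and replicate 2 of each group for the 10 genes (blue OL groups, orange OPC groups). Nearly all OL points lie above 0, up to 2.45-fold for Etv4 in OL miR-145+miR-219, while OPC points lie on both sides of 0, with Spred1 in OPC anti-miR-145 lowest at -0.33 and Dusp5 in the same group highest at 0.70.

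Correlations between members were taken across the 10 libraries, 6 of OLs and 4 of OPCs. Every member was higher in each OPC library than in each OL library, as were 24.3% of 16339 genes. That split by itself raises correlations over the 10 libraries, between members and with other genes. The correlation of log2(CPM + 1) was highest between Dusp6 and Spry4 (r = 0.996) and lowest between Dusp5 and Spred1 (r = 0.652). Within the 6 OL libraries it ranged from -0.722 for Dusp4 with Dusp5 to 0.977 for Etv4 with Etv5, and Spry4 with Etv4 stood at 0.972. Libraries of a group share their treatment, so these values are descriptions. Among 10785 genes with a symbol and a mean of at least 5 CPM, the patterns most like that of Dusp6 over the 10 libraries were those of Emilin1 (r = 0.999), Mfge8 (r = 0.998) and Efhd2 (r = 0.998). Those most like Spry4 were Mapk7, Mmp15 and Chst7 (each r = 0.998), and those most like Etv5 were Cspg5, Elavl4 and Magi1 (each r = 0.996).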

How the data were processed

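Per the labels and the study's methods, libraries were made with a stranded mRNA kit, and Salmon 0.12.0 was run by the authors on GENCODE rat transcripts (Rnor6.0), with tximport summing them to genes. They deposited estimated counts per gene, not normalized, in 10 libraries of 2 per group. Gene symbols came from the authors' second table, whose other columns hold fold changes and p-values of their own DESeq2 comparison and were not used. It gave a symbol for 14561 of 16129 IDs.

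Estimated counts were rounded. Each of 5 comparisons was fitted on its 4 libraries with edgeR 4.0.16 (R 4.3.3, TMM, quasi-likelihood test) keeping a gene where 2 or more libraries had 5 or more counts, with Benjamini-Hochberg adjustment over all genes tested. Adjusted p under 0.05 was called. The standard error is the log2 fold change divided by the square root of F. Dusp5 had the fewest counts of the 10 genes (at least 40 per library), and the precision rests on 2 libraries per group. Within a group libraries differed by more than counting noise. Alternatives were DESeq2 1.42.0, its size factors, no filter, at least 10 counts, all 5 groups in 1 fit, a replicate block, and leaving out each library, where a lone library is assumed to vary like the other group. The functions were tested on simulated data. Figures used matplotlib 3.10.9.

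The 10 genes, the 10 pathway lists and the marker lists were chosen with earlier results of these data known. Named were the 10 genes, from each list the called genes of smallest p (up to 3 higher and 3 lower, or else the 2 of highest mean CPM), and the ERK, MEK, PDGF and FGF receptor genes and Cic. List genes whose symbol was not matched were not used here. Promoter and miRNA sequences are RefSeq's, on GRCr8, whose coordinates were not joined to the counts. Some list genes that the naming rule takes are not reported here.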

Additional observations from a re-analysis of the deposited data

How the results depend on the processing

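Each result is limited by its 2 libraries per group. The counts of called members kept their value within 1.5 times under DESeq2, its size factors, both other filters and all 5 groups in 1 fit, in each of the 5 comparisons. The study describes each N as a biological replicate, but no source used here says that same-numbered libraries of different groups came from the same culture. The pairing below was therefore not used. Deviations of same-numbered libraries correlated at 0.396, 0.457 and 0.622 in the 3 OL comparisons, at -0.141 in the OPC comparison and at 0.0646 between stages. With a replicate block 4 members were called in OL miR-145 against OL miR-ctl, Spry2, Etv1, Etv4 and Etv5, all higher (edgeR adjusted p = 0.0138, 0.000636, 3.48e-05 and 0.000555), among 2272 of 15461 genes, and 1 in OL miR-145+miR-219 against OL miR-145, Etv4, lower. The block turned Spry4 in OL miR-145+miR-219 against OL miR-ctl to 0.0062 and Spred1 against OL miR-145 to -0.0038, lost Dusp5 between stages, and changed no other call. A crossed replicate block in OPCs, added after the data were examined, called 4 members instead of 2. How many of all genes that fit called is not reported here, so this change cannot be set against the background. Leaving out 1 library gave 2 to 6 called members in OPCs, among 2348 to 7133 called genes, against 4348 with all libraries and 2553 with all 5 groups in 1 fit. Between stages it gave 8 to 10 members, among 4780 to 10306 genes, against 9042. In the OL comparisons, where edgeR called no gene, DESeq2 called 649, 106 and 9 genes, the block 2272, 132 and 184, all 5 groups in 1 fit 32 in the first, and no filter 1 in the second.

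Leaving out 1 library also changed the sign of estimates that were not called, in 35 of 200 cases. In OL miR-145 against OL miR-ctl the log2 fold change then ran from -0.69 to 0.19 for Dusp4, -0.084 to 0.19 for Dusp5, -0.20 to 0.26 for Spry1, -0.016 to 0.83 for Spry4 and -0.17 to 0.38 for Spred1. In OL miR-145+miR-219 against OL miR-ctl it ran from -0.43 to 0.28 for Dusp4, -0.14 to 0.074 for Dusp5, -0.10 to 0.22 for Dusp6, -0.58 to 0.071 for Spry1, -0.38 to 0.47 for Spry4, -0.16 to 0.40 for Spred1, -0.60 to 0.77 for Etv4 and -0.15 to 0.65 for Etv5. Against OL miR-145 it ran from -0.28 to 0.56 for Dusp4, -0.24 to 0.049 for Dusp5, -0.63 to 0.025 for Spry1, -0.35 to 0.063 for Spry2, -0.17 to 0.16 for Spred1, -0.39 to 0.12 for Etv1 and -0.69 to 0.073 for Etv5. For Etv5 in OPCs it ran from -0.030 to 0.068. The cause was not tested.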
